A study of Homo sapiens with 8 samples.

Results

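Long runs of closely spaced H3K27ac peaks were picked out of the peak lists of 2 pancreatic carcinoma lines, MP2_HDAC1_OE and MP2_NTC. Overlapping intervals of both lists were merged, merged regions within 12.5 kb of each other were stitched, and the deposited signal was summed over the distinct intervals of each stretch in each list. A stretch was kept if its sum was among the top 500 of either list. This gave 693 stretches of 10516 in all, and they hold 4441 of the 18678 merged regions. They were selected on the summed signal of these same lists, so sums, ranks and everything that follows from the rank are given as a description with no test. Of the 693 stretches, 307 were in the top 500 of both lists, 193 in that of MP2_HDAC1_OE only and 193 in that of MP2_NTC only.

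Both lines derive from MIA PaCa-2, an established line of pancreatic carcinoma cells with an epithelial label, and both carry a lentiviral CRISPR activation system, in which a guide RNA brings a transcriptional activator to a promoter. MP2_HDAC1_OE carries a guide RNA to HDAC1, a histone deacetylase, and MP2_NTC a non-targeting guide RNA, and the labels give no further treatment. Each line had 2 H3K27ac samples and 2 control samples without the antibody, but 1 peak list pools both H3K27ac samples of a line, so the lists hold no replicates, no difference between them could be set against a spread, and the sequencing depth is unknown. The lists hold 23864 distinct intervals in MP2_HDAC1_OE and 21599 in MP2_NTC, with a median signal of 46.5 and 49.3. How the signal was scaled between the lists is not known, so the comparison rests on the rank within a list, where rank 1 is the largest sum.

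H3K27ac is an acetyl mark that lies at active promoters and enhancers, and HDAC1 is a core subunit of several corepressor complexes that remove such marks. Super-enhancers are groups of neighbouring enhancers with very large amounts of this mark or of bound coactivator, and they are known to lie near genes that define a cell's identity and near oncogenes in tumour cells. The usual way to find them stitches peaks and ranks the sums, as was done here, but read density over an input was not used here and the sums are of peak signals.

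The largest sums stood well above the rest. The stretch at rank 1 had a sum of 3019.5 in MP2_HDAC1_OE and 2262.87 in MP2_NTC, against 300.2 and 296.3 at rank 500 and medians of 100.8 and 104.1 over all stretches with an interval. The top 500 stretches of MP2_HDAC1_OE held 21.5% of the summed signal of their list, and those of MP2_NTC held 20.2%. There was no step at rank 500. In MP2_HDAC1_OE the stretch at TCEANC was at rank 500 with 300.153 and that at PPP6C at rank 501 with 299.994, with ETV5 at rank 499 and CUEDC1 at rank 502 on either side. In MP2_NTC the stretch at ZNF585B was at rank 500 with 296.277 and that at PRRC2C at rank 501 with 295.625, next to ARF6 at rank 499 and YEATS2 at rank 502. The division into members of both lists and of 1 list is therefore sharp only as a rule.

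**Figure D1:**
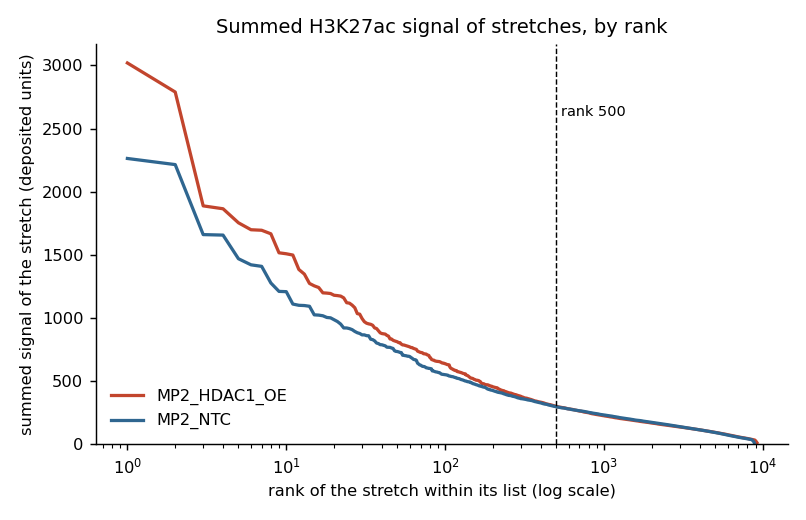
Summed signal of each stretch (deposited units, linear axis) against its rank within its list (log axis), with 1 line per list and a dashed line at rank 500. The curve of MP2_HDAC1_OE lies above that of MP2_NTC at the top (3019.5 against 2262.87 at rank 1), and the curves meet near rank 500 (300.2 against 296.3).

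The members held more intervals than other stretches, and intervals of about the same signal. A member was 17.6 kb long and held 5 merged regions at the median, against 1.2 kb and 1 region over all stretches. Over the members, the sum had a Spearman correlation with the number of intervals of 0.89 in MP2_HDAC1_OE and 0.83 in MP2_NTC, but of -0.22 and 0.02 with the mean signal of an interval (n = 691 stretches per list, which share the list's depth and scaling). The correlation with the number was 0.85 and 0.83 over all stretches with an interval, so it is not particular to members. The members were chosen by this sum, which bears on all of these values. The median interval of the members had a signal of 45.3 in MP2_HDAC1_OE and 48.3 in MP2_NTC, slightly below the 47.1 and 49.9 of intervals elsewhere.

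The label of super-enhancer was checked against length and position, which the rule used only in part or not at all. A region was called at a start when it lay within 2 kb of the annotated start of a protein-coding gene, or of either end where no start was given. Of the 693 members, 172 (24.8%, 95% Wilson interval 21.7 to 28.2) had no region at a start, 322 (46.5%, 42.8 to 50.2) had regions of both kinds, and 199 (28.7%, 25.5 to 32.2) consisted of regions at starts alone. Over all stretches these shares were 26.6%, 9.87% and 63.6%. Thus 521 members (75.2%, 71.8 to 78.3) had a region at a start, against 73.4% (72.6 to 74.3) of all stretches, intervals that overlap. Per region the members lay farther from starts, since 37.0% of their 4441 regions were at a start against 59.5% of all regions. Further, 79 members (11.4%) were shorter than 5 kb and 16 held a single merged region, so the set joins long distal runs with compact promoters and gene-dense clusters of promoters, and it is called stitched stretches below.

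Promoters were read for the stretches that stand for the 3 groups, since the files hold no sequence and distal regions could be read from no genome. Shown are, in rank order, the first stretches with a coding promoter under a merged region: BCAR3 and TMSB4X from the top of both lists, MYO1C and PLEKHG5 from those in the top 500 of MP2_HDAC1_OE only, and PAPOLA and S100A16 from those of MP2_NTC only. Each run holds 250 bases before and 50 bases after the start (RefSeq, GRCh38.p14), 5′ to 3′ on the gene's strand. Capitals mark matches, on either strand and with overlaps allowed, to the AP-1 letters (TGANTCA), the GC box of SP and KLF factors (GGGCGG), the CCAAT box, the core bound by ETS factors such as those of MAPK signalling (CCGGAAG), the site of TEAD factors, which carry YAP and TAZ to DNA (GGAATG), or the TATA box that positions the start of transcription in some genes (TATAAA).
BCAR3 (chr1:93775337-93775636, minus strand): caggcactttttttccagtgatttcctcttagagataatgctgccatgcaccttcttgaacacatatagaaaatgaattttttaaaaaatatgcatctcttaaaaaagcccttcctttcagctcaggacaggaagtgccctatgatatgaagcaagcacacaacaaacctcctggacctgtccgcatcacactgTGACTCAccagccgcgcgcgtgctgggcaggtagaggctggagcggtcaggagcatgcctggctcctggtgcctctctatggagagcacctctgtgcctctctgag
TMSB4X (chrX:12974860-12975159, plus strand): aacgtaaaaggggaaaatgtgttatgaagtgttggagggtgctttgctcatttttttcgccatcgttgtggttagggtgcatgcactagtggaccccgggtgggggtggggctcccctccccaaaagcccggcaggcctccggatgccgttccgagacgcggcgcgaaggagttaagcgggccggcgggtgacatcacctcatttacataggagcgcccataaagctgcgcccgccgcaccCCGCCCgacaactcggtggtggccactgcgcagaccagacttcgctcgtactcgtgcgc
MYO1C (chr17:1491630-1491929, minus strand): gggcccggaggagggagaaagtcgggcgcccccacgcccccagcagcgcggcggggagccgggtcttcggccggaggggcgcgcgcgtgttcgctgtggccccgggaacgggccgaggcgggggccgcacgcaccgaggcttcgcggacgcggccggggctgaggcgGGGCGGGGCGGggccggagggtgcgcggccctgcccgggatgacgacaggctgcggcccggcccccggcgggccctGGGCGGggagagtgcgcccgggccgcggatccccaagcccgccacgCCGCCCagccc
PLEKHG5 (chr1:6490531-6490830, minus strand): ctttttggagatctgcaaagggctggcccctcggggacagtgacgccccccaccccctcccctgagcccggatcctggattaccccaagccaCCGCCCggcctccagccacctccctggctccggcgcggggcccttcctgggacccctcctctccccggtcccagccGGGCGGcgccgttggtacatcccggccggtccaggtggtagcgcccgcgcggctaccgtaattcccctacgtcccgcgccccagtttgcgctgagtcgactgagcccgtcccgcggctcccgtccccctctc
PAPOLA (chr14:96502126-96502425, plus strand): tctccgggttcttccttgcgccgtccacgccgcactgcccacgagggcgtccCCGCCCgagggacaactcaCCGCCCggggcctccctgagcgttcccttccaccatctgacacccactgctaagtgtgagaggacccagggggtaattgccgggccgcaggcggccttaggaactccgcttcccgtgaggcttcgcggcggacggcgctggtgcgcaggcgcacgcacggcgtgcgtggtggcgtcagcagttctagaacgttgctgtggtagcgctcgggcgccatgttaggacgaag
S100A16 (chr1:153613088-153613387, minus strand): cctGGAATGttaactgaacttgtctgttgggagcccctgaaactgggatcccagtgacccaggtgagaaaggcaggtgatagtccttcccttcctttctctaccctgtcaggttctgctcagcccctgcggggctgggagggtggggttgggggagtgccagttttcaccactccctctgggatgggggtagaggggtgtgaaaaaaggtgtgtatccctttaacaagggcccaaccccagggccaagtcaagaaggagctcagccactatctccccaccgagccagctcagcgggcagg

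The promoters differed in base composition and in the marks they carried. The BCAR3 promoter held 49.3% G and C and the one AP-1 match, and it lay under an interval in both lists (signal 48.4 in MP2_HDAC1_OE and 103.7 in MP2_NTC). The MYO1C promoter held 83.3% G and C with 4 GC boxes, and that of PLEKHG5 72.3% with 2 GC boxes, and both lay under an interval of MP2_HDAC1_OE alone (59.6 and 54.0). The PAPOLA promoter, with 2 GC boxes, lay under an interval of MP2_NTC alone (87.4), as did that of TMSB4X (99.0), although the stretch around TMSB4X was among the top of both lists. S100A16 had the TEAD match and an interval in each list (57.5 and 54.2). Over all 1269 promoters under a region of a member, 68.7% held a GC box, 34.7% CCAAT, 19.9% the ETS core, 12.9% the TEAD letters, 7.41% TATAAA and 6.23% the AP-1 letters. Over all 35116 promoters of the table these shares were 45.0%, 34.6%, 10.3%, 14.0%, 11.5% and 7.71%. Over the 10759 promoters under any merged region they were 72.7%, 33.8%, 22.2%, 10.7%, 4.17% and 4.31%. In the GC box, the ETS core and TATAAA the members' promoters were closer to the promoters under any merged region, a set that includes them. In CCAAT and the TEAD and AP-1 letters they were closer to promoters at large. A match is a description of letters, not a binding site.

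The 15 stretches with the smallest mean rank included some at TP63, MALAT1 and histone genes and others far from any coding gene. The first was inside TPRG1, a gene next to TP63, at chr3:189267237-189331907. It held 31 merged regions over 64.7 kb, with a sum of 2789.2 from 50 intervals in MP2_HDAC1_OE (rank 2) and 2262.87 from 44 intervals in MP2_NTC (rank 1). The second, at chr5:103831178-103944429, was the longest of all, with 46 regions over 113.3 kb and no coding gene inside. Its nearest coding gene, NUDT12, lay 268.4 kb away, and it was at rank 1 in MP2_HDAC1_OE (69 intervals) and rank 2 in MP2_NTC (55 intervals). Its regions were all away from coding starts. A distal stretch over P3H2 and TP63, the p63 factor of basal and squamous epithelium, was at rank 4 in MP2_HDAC1_OE (38 intervals) and rank 11 in MP2_NTC (24 intervals), and a further stretch within TP63 was at ranks 152 and 232. These 3 stretches lie on chromosome 3 within less than 1 Mb.

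The next stretches lay in or near single genes or spanned several. BCAR3, an adaptor protein of SRC-family and integrin signalling, was at ranks 3 and 4 in MP2_HDAC1_OE and MP2_NTC, with 32 and 29 intervals. TMSB4X, the actin-binding thymosin beta 4, was at ranks 5 and 7. A stretch 44.0 kb from ERRFI1, an inhibitor of EGFR, was at ranks 6 and 12, and a neighbouring one 77.2 kb from SLC45A1 at ranks 13 and 5. A stretch 59.3 kb from SPRY4, an inhibitor of RAS to MAPK signalling, was at ranks 7 and 16. PKD1L1 was at ranks 9 and 14, HM13 with ID1, an inhibitor of basic helix-loop-helix factors, at ranks 10 and 25, and TOX2 at ranks 8 and 43. Gene-dense stretches reached the top as well: RACK1 with TRIM41, TRIM7 and TRIM52 at ranks 17 and 3, TMEM107 with CTC1, the clock gene PER1 and VAMP2 at ranks 16 and 8, and HEXIM2 with PLCD3, HEXIM1 and ACBD4 at ranks 31 and 10. By length, the 5 longest members were those near NUDT12, at TMSB4X, near SPRY4, at TMEM107 and at TOX2. By number of regions, NUDT12, TMSB4X, ERRFI1, TPRG1 and TOX2 led.

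**Figure D2:**
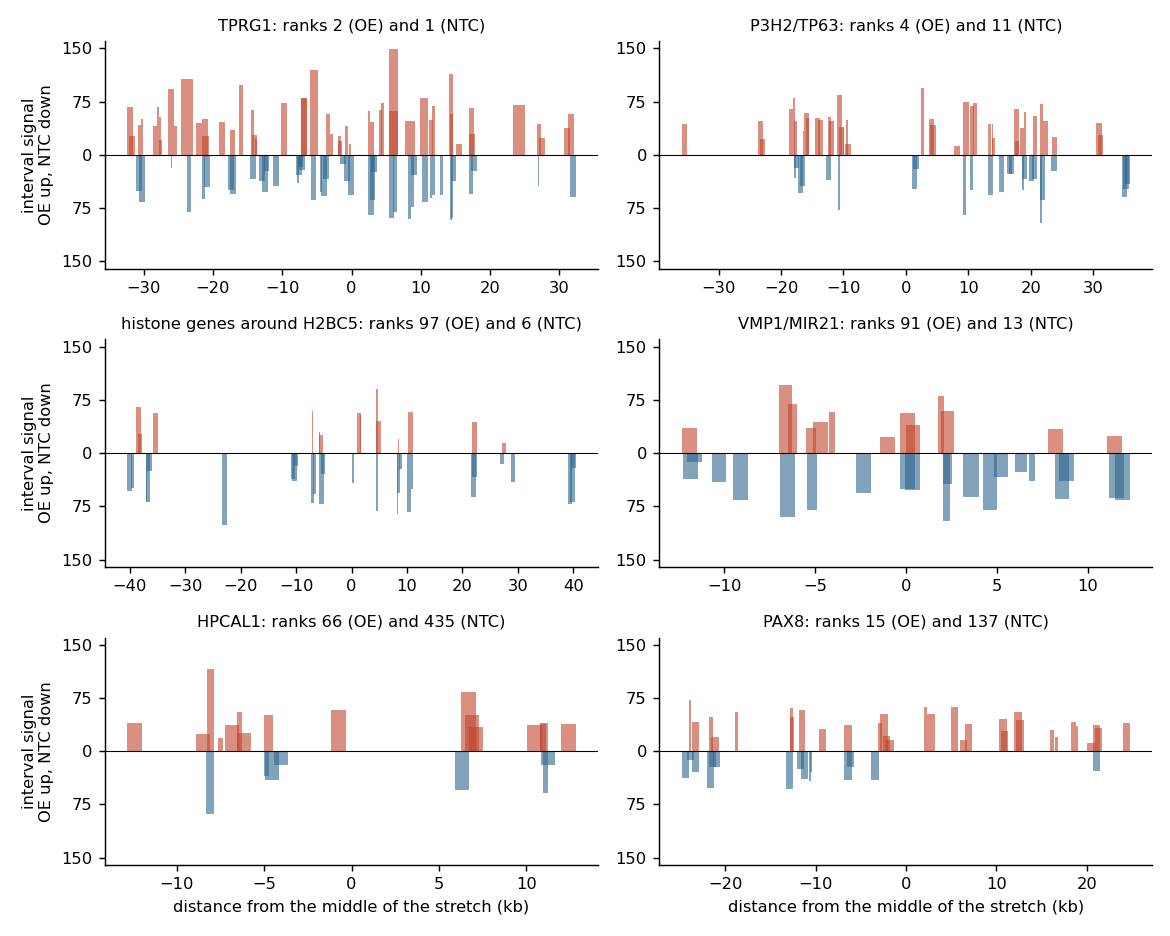
Intervals of 6 stretches, drawn at their distance from the middle of the stretch (kb) and to the height of their signal, with MP2_HDAC1_OE upward in red and MP2_NTC downward in blue. The TPRG1 and P3H2/TP63 stretches are filled in both lists, the histone and VMP1/MIR21 stretches hold more intervals in MP2_NTC (27 against 14 and 20 against 13), and the HPCAL1 and PAX8 stretches more in MP2_HDAC1_OE (16 against 7 and 31 against 15).

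The lists shared more of their order than of their exact ranks. Of the first 10 stretches 4 were common to both lists, of the first 50 it was 34 (68.0%), of the first 100 it was 62 (62.0%) and of the first 500 it was 307 (61.4%). The Spearman correlation of the sums between lists was 0.56 over the 7482 stretches with intervals in both lists and 0.63 over the 307 members of both. It was 0.38 over all 693 members, a value that the choice of stretches from either top bears on. The 307 stretches of both lists were also the longest, at 25.8 kb and 8 regions at the median, against 14.4 kb and 4 regions for MP2_HDAC1_OE only and 11.3 kb and 3 regions for MP2_NTC only.

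**Figure D3:**
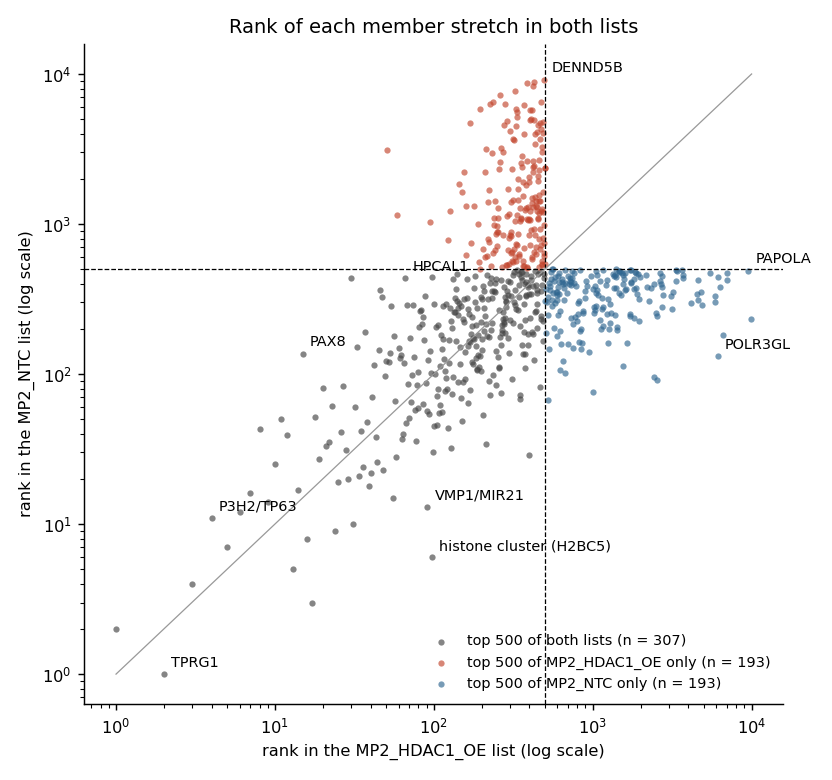
Rank of each of the 693 stretches in MP2_HDAC1_OE (x axis, log scale) and MP2_NTC (y axis, log scale), with dashed lines at rank 500, the diagonal of equal rank and names of stretches described in the text. Points of both lists (grey, 307) scatter around the diagonal, while 193 stretches each lie beyond rank 500 in MP2_NTC (red) or in MP2_HDAC1_OE (blue), out to ranks of 9186 and 9978. Ranks past 8819 in MP2_NTC or past 9179 in MP2_HDAC1_OE belong to stretches with no interval there and follow position alone.

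Membership of a single list seldom meant absence from the other. Only 2 members had no interval in MP2_NTC and 2 had none in MP2_HDAC1_OE, while of all stretches 16.1% had no interval in MP2_NTC and 12.7% had none in MP2_HDAC1_OE. The rule asks for a large sum, so these low counts are a property of the choice. Of the 193 stretches of MP2_HDAC1_OE only, 72 were within the first 1000 of MP2_NTC and 50 were past rank 2500, with a median rank there of 1260. Of the 193 stretches of MP2_NTC only, 82 were within the first 1000 of MP2_HDAC1_OE and 35 past rank 2500, with a median of 1136. Relative to the median stretch, the sum was more than 1.5-fold higher in MP2_HDAC1_OE in 189 of 689 members with intervals in both lists (27.4%), against 23.3% of all 7482 such stretches, and more than 1.5-fold lower in 137 (19.9%), against 23% of all. The rule used these sums, so nothing is read from these shares.

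The sum of a stretch is the number of its intervals times their mean signal, so the choice by sum fixes that one or both lean toward the list of the group, and the values are given as a description. In the MP2_HDAC1_OE only group, 177 of 193 stretches (91.7%) held more intervals in MP2_HDAC1_OE, with medians of 7 and 4 and a median ratio of 1.83, but the ratio of the mean signal was 0.98. In the MP2_NTC only group, 151 of 193 (78.2%) held more intervals in MP2_NTC, with medians of 6 and 4 and a ratio of MP2_HDAC1_OE to MP2_NTC of 0.667, while the ratio of the mean signal was 0.909. Among stretches of both lists the ratios were 1.2 and 0.939, and over all 7482 stretches with intervals in both lists they were 1 and 0.949.

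**Figure D4:**
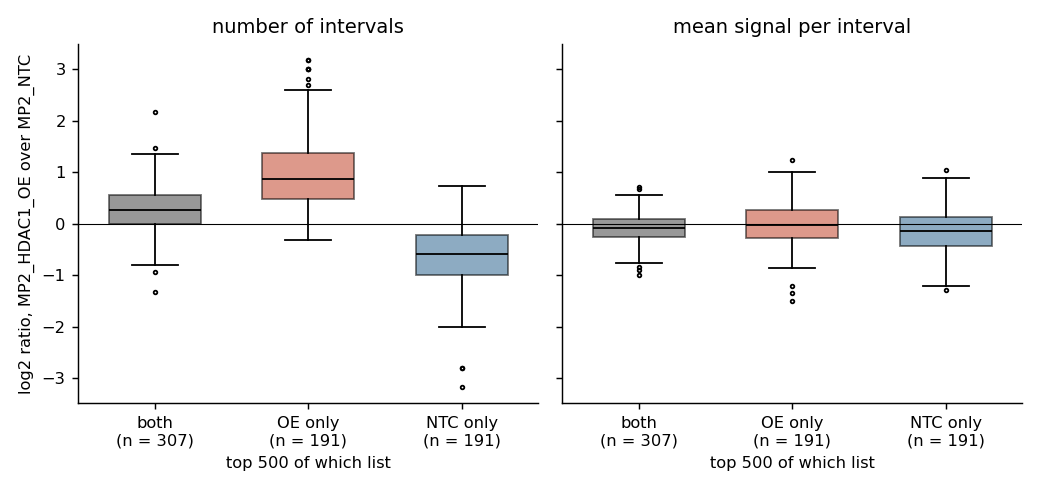
Log2 ratio of MP2_HDAC1_OE over MP2_NTC for the number of intervals (left) and the mean signal of an interval (right) in stretches with intervals in both lists, as boxes (quartiles, median line, whiskers to the last point within 1.5 times the box, points beyond). The medians in number are 0.26 for members of both lists, 0.87 for MP2_HDAC1_OE only and -0.58 for MP2_NTC only, and in mean signal -0.09, -0.03 and -0.14.

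The groups also differed in position, a property the rule did not use directly. Of the MP2_HDAC1_OE only stretches, 59 (30.6%, 24.5 to 37.4) were distal throughout, against 26 (13.5%, 9.36 to 19.01) of the MP2_NTC only stretches. Stretches made of starts alone were 57 (29.5%, 23.5 to 36.3) and 88 (45.6%, 38.7 to 52.6). The Wilson intervals of each of these pairs do not overlap, but they cover counting error alone and stretches of 1 list are not replicates of a line. Over all stretches 26.6% were distal throughout and 63.6% made of starts alone. The interval of the MP2_HDAC1_OE only distal share covers the 26.6%. Short stretches were more frequent in the MP2_NTC only group, with 49 (25.4%) under 5 kb against 22 (11.4%) in MP2_HDAC1_OE only. Some MP2_NTC only stretches of starts alone ranked high through overlapping intervals, as given below for PAPOLA, S100A16 and TMCO1. The part of length and overlap in the difference of position was not tested. Of the regions inside the MP2_HDAC1_OE only stretches, 38.3% were at a start, against 57.3% in the MP2_NTC only stretches and 31.4% in those of both lists. No coding gene overlapped 43 (22.3%) of the MP2_HDAC1_OE only and 19 (9.84%) of the MP2_NTC only stretches. Of the 4756 regions away from starts outside the members, 40.9% were unique to MP2_HDAC1_OE and 28.1% to MP2_NTC. Of the 9481 regions at starts outside the members, these shares were 20.7% and 17.7%.

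Of the 10 stretches of MP2_HDAC1_OE only with the largest difference of rank, 5 had no region at a coding start. The first was inside DENND5B, an exchange factor of RAB GTPases, at chr12:31492374-31497958, with 7 intervals and a sum of 300.9 at rank 495 in MP2_HDAC1_OE and no interval in MP2_NTC. A stretch with no interval in a list takes its rank there by position, so its place in this order is partly arbitrary. A stretch 102.6 kb from RAP2B, a RAS-related GTPase, had 9 intervals and a sum of 335.6 (rank 386) against 1 interval and 20.1 (rank 8744). That of MYO1C, a myosin motor of the membrane, was at ranks 419 and 8302 with 6 intervals and 1, and that of PLEKHG5, an exchange factor of small GTPases, at ranks 325 and 7700 with 8 intervals and 2. ILK, the integrin-linked kinase, shared a stretch with TAF10, TPP1 and RRP8 at ranks 237 and 6550 with 9 intervals and 1. Others were near NXPH2 (ranks 261 and 7286), near ACTBL2 (226 and 6317), at NDRG4 with SETD6 (476 and 6535) and at ARL2 with SAC3D1, NAALADL1 and SNX15 (279 and 6271).

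Of the 10 stretches of MP2_NTC only, 4 consisted of starts alone (PAPOLA, S100A16, TMCO1 and ZCCHC3), with 1 or 2 merged regions each. The largest difference of rank was at chr21:6368858-6371802, 73.1 kb from LOC102724560, with 4 intervals and a sum of 399.2 (rank 233) in MP2_NTC and none in MP2_HDAC1_OE. PAPOLA, the nuclear poly(A) polymerase, had 4 intervals and a sum of 298.7 (rank 489) within 1.34 kb and none in MP2_HDAC1_OE. S100A16, a calcium-binding protein, was at rank 423 with 7 intervals against rank 6989 with 1. TXNIP, an inhibitor of thioredoxin, and POLR3GL, a subunit of RNA polymerase III, shared a stretch at rank 131 with 7 intervals and a sum of 504.4, against rank 6134 with 1 interval and 72.0. PPP1R14A with DPF1 (ranks 472 in MP2_NTC and 6980 in MP2_HDAC1_OE), AKNAD1 (181 and 6602), PDLIM7 with DDX41, FAM193B and DOK3 (379 and 6360), TMCO1 (442 and 6162), ZCCHC3 with C20orf96 (332 and 5902) and ZC3H12A (303 and 5848), a ribonuclease of immune mRNAs, complete the 10.

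The rank of some of these named stretches depended on overlapping intervals. When each set of overlapping intervals of a list was counted once, at its highest signal, PAPOLA went from rank 489 to 3497 in MP2_NTC, S100A16 from 423 to 2638 and TMCO1 from 442 to 1066. DENND5B went from rank 495 to 1595 in MP2_HDAC1_OE and NDRG4 from 476 to 1199. In contrast POLR3GL went from 131 to 207, and the chromosome 21 stretch rose from 233 to 153.

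Among the stretches of both lists, the largest shifts toward MP2_HDAC1_OE included those at PAX8, NOL3, MIR137HG and HPCAL1. PAX8, a transcription factor of thyroid and kidney, had 31 intervals and a sum of 1253.7 (rank 15) in MP2_HDAC1_OE and 15 intervals and 496.6 (rank 137) in MP2_NTC, all away from coding starts. NOL3, an inhibitor of apoptosis, lay with E2F4, FBXL8 and B3GNT9 at ranks 46 and 362. The stretch at MIR137HG, nearest to LOC124904228, was at ranks 47 and 324, and HPCAL1 at ranks 66 and 435, with 16 intervals and 7.

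The largest shifts toward MP2_NTC were at histone genes, near SPRY4, and at VMP1, MPDU1 and SREBF1. The histone stretch around H2BC5, H3C6, H1-3 and H1-4 had 27 intervals and a sum of 1420.3 (rank 6) in MP2_NTC and 14 intervals and 641.4 (rank 97) in MP2_HDAC1_OE. The stretch 17.1 kb from SPRY4 had 15 intervals (rank 29) and 6 (rank 398), while its neighbour farther from SPRY4 stood higher in MP2_HDAC1_OE (rank 7 against 16). VMP1, a membrane protein of autophagy whose stretch holds MIR21, had 20 intervals and a sum of 1097.7 (rank 13) in MP2_NTC and 13 intervals and 655.1 (rank 91) in MP2_HDAC1_OE. MPDU1, with TNFSF12-TNFSF13, TNFSF13 and EIF4A1, was at rank 34 in MP2_NTC and 212 in MP2_HDAC1_OE. SREBF1, a transcription factor of fatty acid and sterol synthesis, was at ranks 82 and 469.

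Hairpins of miRNAs lay inside 51 members (7.36%), and 58 of 1562 hairpins of the table (3.71%) were inside one. The mature forms below were chosen after their positions were seen, since they stand for 3 kinds of host: a distal stretch with MIR21, a gene-dense one with MIR200C and MIR141, and a cluster of starts with MIR25, MIR93 and MIR106B inside MCM7. They are written 5′ to 3′ with the seed (bases 2 to 8) in capitals, from RefSeq, GRCh38.p14.
hsa-miR-21-5p (chr17:59841273-59841294, plus strand): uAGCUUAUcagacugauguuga
hsa-miR-200c-3p (chr12:6963742-6963764, plus strand): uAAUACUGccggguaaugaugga
hsa-miR-141-3p (chr12:6964155-6964176, plus strand): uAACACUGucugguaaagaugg
hsa-miR-25-3p (chr7:100093571-100093592, minus strand): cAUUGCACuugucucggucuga
hsa-miR-93-5p (chr7:100093815-100093837, minus strand): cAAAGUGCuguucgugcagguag
hsa-miR-106b-5p (chr7:100094043-100094063, minus strand): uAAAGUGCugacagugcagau

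The miR-21 hairpin lies in a merged region of the VMP1 stretch described above, and miR-21 is known as a miRNA of many carcinomas. The hairpins of miR-200c and miR-141, which repress the ZEB factors of the epithelial-mesenchymal transition (EMT), lay 466 and 643 bases (mature 3p forms) from the nearest region of a stretch with ATN1, PHB2, EMG1 and C12orf57, at rank 22 in MP2_HDAC1_OE and 35 in MP2_NTC. The miR-93 and miR-106b forms share the seed AAAGUGC, and that of miR-25 is AUUGCAC. Their stretch, with AP4M1, MCM7, ZNF3 and COPS6, was at ranks 179 and 374. The forms shown of miR-25, miR-93 and miR-106b lay 4200, 4444 and 4672 bases from its nearest region, so outside the acetylated intervals.

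Of 20052 protein-coding genes, 1202 (5.99%) overlapped a member, and the lists of genes below are read against that share. It includes genes in no stretch at all, and the lists differed in this. In any stretch were 53 of 68 histone, 75 of 83 ribosomal protein and 343 of 477 zinc finger genes. For HOX genes it was 13 of 39, and for lineage factors 7 of 26. The shares in members are not corrected for this. Most of the lists were short and are described by their counts. Replication-dependent histones, which package DNA in S phase, were the most frequent, with 42 of 68 (61.8%) in a member and 41 of them in the top 500 of both lists. They are not independent, since 41 of them share 5 stretches on chromosome 6. Each of these 5 stood higher in MP2_NTC than in MP2_HDAC1_OE: ranks 6 and 97 around H2BC5, 9 and 24 around H1-2, 15 and 55 around H2BC14, 23 and 48 around H2BC11 and 32 and 128 around H1-5. The remaining gene, H4C16, was in the top 500 of MP2_HDAC1_OE only (ranks 440 and 708).

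Nuclear RNAs and AP-1 factors came next. Of 18 lncRNAs, 7 (38.9%) were in a member, with MALAT1 at ranks 14 (MP2_HDAC1_OE) and 17 (MP2_NTC) and NEAT1 at 34 and 21, next to each other on chromosome 11. MIR22HG was at ranks 188 and 275, SNHG1 at 219 and 318, SNHG15 at 1114 and 416, SNHG16 at 416 and 1383 and SNHG17 at 491 and 752. Of 13 AP-1 and small MAF genes, whose products bind enhancers downstream of MAPK signalling, 5 (38.5%) were in a member. FOSB (ranks 36 and 24), JUND (63 and 37) and JUNB (131 and 204) were in the top 500 of both lists, and FOSL1 (123 and 781) and MAFG (339 and 856) in that of MP2_HDAC1_OE only. The FOSL1 stretch held 12 intervals in MP2_HDAC1_OE and 7 in MP2_NTC.

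Genes of proliferation, survival and Hippo signalling came from short lists, so their shares rest on few genes. Of 14 genes of the MYC network, 5 (35.7%) were in a member. MYC, the growth-promoting transcription factor, was in the top 500 of MP2_HDAC1_OE only (ranks 160 and 621, 9 and 5 intervals), and its neighbour PVT1 in that of both (223 and 90 for the stretch with the best rank), followed by MLX (263 and 155), MXD3 (2527 and 243) and MNT (468 and 482). Of 16 BCL2 family genes 4 (25%) were in a member: the death effectors BAX (183 and 154) and BBC3 (189 and 182), and the survival genes BCL2L2 (316 and 220) and BCL2L1 (619 and 195). Of 13 YAP and TEAD genes 3 (23.1%) were, WWTR1, which encodes TAZ, at ranks 74 and 288, AMOTL2, an inhibitor of YAP, at 647 and 123, and TEAD4 at 1043 and 487. The CDK inhibitor CDKN1B (256 and 111) was the one of 15 G1 genes in a member (6.67%).

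Genes of EMT and of receptors were split. Of 26 EMT and mesenchymal genes 4 (15.4%) were in a member. Among them S100A4 (ranks 76 and 58) and vimentin, VIM (125 and 118), were in the top 500 of both lists, and ITGB1 (358 and 2850) in that of MP2_HDAC1_OE only, with 8 intervals against 2. EPHA2 was at ranks 49 and 97 and EGFR at 3674 and 495, the only 2 of 19 genes of receptor tyrosine kinases and EGF ligands. Of 31 genes of small GTPases and their regulators, ARHGAP35 (370 and 191) and RRAS (1427 and 207) were in a member. Of 83 cytosolic ribosomal proteins 19 (22.9%) were, 9 in both, 2 in MP2_HDAC1_OE only (RPS18 and RPL29) and 8 in MP2_NTC only, with RPS27 (39 and 18), RPL18 (85 and 63) and FAU (672 and 101) ranked first.

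The remaining lists had few genes in a member. Of 477 zinc finger genes 26 (5.45%) were in a member, led by ZNF839 (40 and 22) and including ZNF217 (78 and 84). Of the 26 genes on the list of pancreatic and gut lineage factors, only TP63, the factor of basal and squamous epithelium, was in a member. None of 39 HOX and 13 TGF-beta and SMAD genes was. Among 12 acetyltransferases and BET readers, KAT8 (181 and 300) and BRD2 (199 and 221) were in a member (16.7%). Of 23 genes of HDAC1 and its corepressor partners, MTA1 (300 and 845) and RBBP7 (1808 and 371) were (8.70%). HDAC1 itself, the gene activated in MP2_HDAC1_OE, was not a member, with a sum of 150.2 from 3 intervals (rank 2473) in MP2_HDAC1_OE and 90.8 from 2 intervals (rank 5057) in MP2_NTC.

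**Figure D5:**
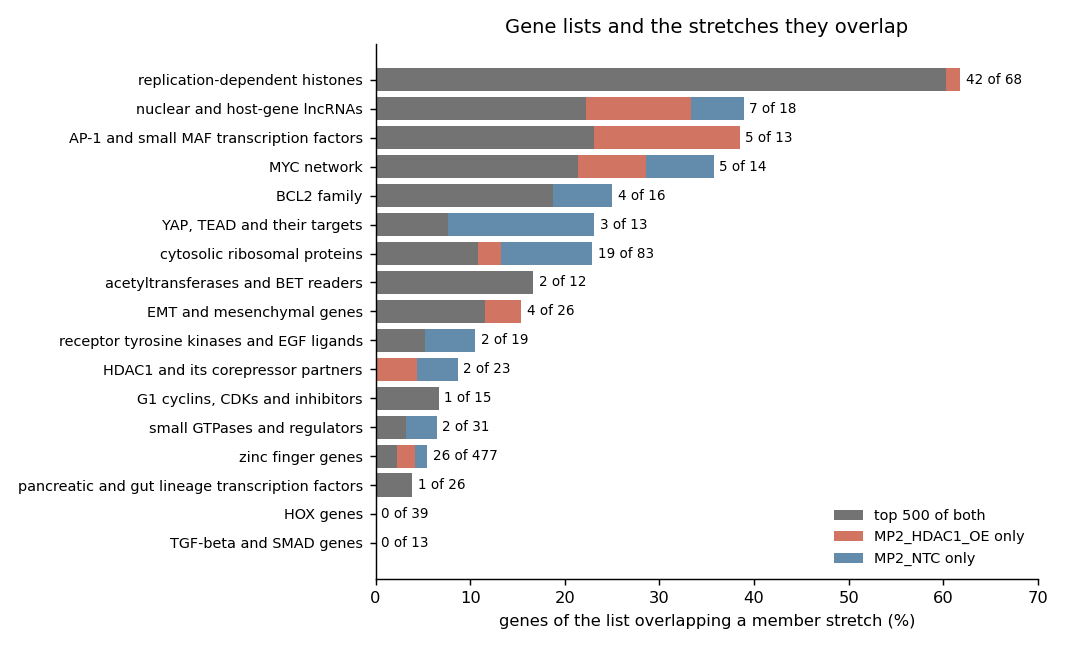
Percent of the genes of each list that overlap a member (x axis), split into stretches in the top 500 of both lists (grey), of MP2_HDAC1_OE only (red) and of MP2_NTC only (blue), with the counts beside each bar. Histone genes stand at 42 of 68, and HOX and TGF-beta genes at 0 of 39 and 0 of 13, against 5.99% of all coding genes. No such share was computed for the lncRNA list.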

How the data were processed

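H3K27ac ChIP-sequencing had been run on MP2_HDAC1_OE and MP2_NTC with 75 bp single-end reads. Per the labels the reads were aligned to hg38, and the submitters' processing notes name BWA 0.7.12 and Picard 1.88. The paper states that peaks were called by the standard ENCODE protocol, but the peak caller is not named in the sources used here. The authors deposited 1 list per line, pooled over both samples by their test of reproducibility (IDR), with a signal value per interval that has no stated scaling. The deposited lists hold 25045 rows in MP2_HDAC1_OE and 22569 in MP2_NTC, of which 1181 and 970 repeat the interval of another row and were dropped in favour of the highest signal.

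Intervals were merged at 1 bp, stitched at 12.5 kb and summed with Python 3.11.15, numpy 2.4.6, pandas 2.3.3 and scipy 1.17.1, and the steps were tested on simulated data. Gene positions came from RefSeq (GRCh38.p14), with annotated starts for 15841 of 20052 protein-coding genes. Wilson intervals are at 95%. Named were the 15 stretches with the smallest mean rank, the 10 per list with the largest rank difference among those of 1 list, 5 shifts per direction, the stretches at rank 500, the 5 longest and the 5 with most regions, up to 6 genes per gene list and HDAC1, and genes named beyond this rule were added to complete a short list. Some items that this rule names are not reported here. The members and the gene lists were chosen with earlier results of these data known. Control samples, read coverage, RNA-sequencing and HDAC1 binding were not analysed here. No test between the lines was run.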

Additional observations from a re-analysis of the deposited data

How the results depend on the processing

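No paired analysis was possible because the samples of a line come in a single joint list, and no replicate could be left out. Of 71 recomputed values 35 stayed within their limits (a count within 1.5 times, other values within a 95% interval of counting or of the correlation), 34 moved and 2 reversed. The count of stretches in both tops was 307 of 500 and moved with the number kept (163 at 250, 570 at 1000) and without stitching (111). The share of summed signal (21.5% in MP2_HDAC1_OE, 20.2% in MP2_NTC) was 16.7% and 15.9% at a stitching distance of 5 kb, 27.8% and 26.6% at 25 kb, 8.97% and 9.99% without stitching, 50.3% and 49.4% without regions at coding starts (within 2.5 kb), 22.3% and 20.9% with signal times length, 10.5% and 11.5% with the highest single signal, 20.6% and 19.6% with the 75% strongest rows, 14.3% and 12.9% for 250 stretches and 32.2% and 31.3% for 1000. The rank correlation over members (0.38) was 0.17 at 5 kb, 0.53 at 25 kb, 0.44 with overlapping intervals counted once, 0.27 with the 75% strongest rows and 0.27 for 1000 stretches. It reversed to -0.49 without stitching and to -0.14 with the highest single signal, where 111 and 217 stretches were in both tops, against 307. The choice of stretches from either top bears on this value, so no reversal between the lines is read from it, and the cause was not tested. The share with a region at a start (75.2%) was 67.0% at 5 kb, 83.1% at 25 kb, 82.6% without stitching, 89.8% with the highest single signal, 68.8% for 250 stretches, 81.0% for 1000 and 84.0% with lncRNA starts. It cannot be computed without regions at starts. A tangent rule, chosen after seeing the data, kept 434 stretches in MP2_HDAC1_OE and 483 in MP2_NTC, with 287 in both and 19.8% of the MP2_HDAC1_OE signal. Of the 693 members, 671 overlapped a member with equal numbers of rows, 540 with overlapping intervals counted once, 272 without stitching and 201 with the highest single signal. The unknown depth limits how far a missing interval can be read as missing acetylation.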

Other observations

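Members were also grouped by their distance along the chromosomes. The same grouping was not run on other stretches, so whether members lie closer together than those is not known. With members within 250 kb joined, the 693 stretches formed 450 groups, 319 stretches stood alone, and 59 groups of 3 or more held 230 stretches. The 2 largest groups held 8 stretches each. The first lay on chromosome 5 from 57808688 to 58463205. It ran from a stretch with no coding gene inside, nearest to ACTBL2, to that at PLK2, a kinase induced by serum and p53. The second, on chromosome 16 from 30394799 to 31118611, ran from ZNF771 to BCKDK and was gene-dense. A group on chromosome 20 held ZNF217, a zinc finger gene that is often amplified in carcinomas, and BCAS1, with 5 members and 90 intervals in MP2_HDAC1_OE against 62 in MP2_NTC. The MYC group on chromosome 8 held 5 members with 60 intervals in MP2_HDAC1_OE and 46 in MP2_NTC, 4 of them in the top 500 of both lists. Over all chromosomes 693 of 10516 stretches were members. The share of stretches that were members ran from 0.702% on chromosome 15 and 0.987% on chromosome 4 to 10.95% on chromosome 17. Copy number was not measured and its part in these shares was not tested.

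Some further members of 1 list that ranked high in their own list were picked after their values were seen. In MP2_HDAC1_OE they include a distal stretch 187.1 kb from SGK1, a kinase of ion transport, at rank 51 with 22 intervals (rank 3096 with 5 in MP2_NTC), that of PYGB, the brain glycogen phosphorylase, with ENTPD6 at ranks 59 and 1144, and that of LIPA, the lysosomal acid lipase, with IFIT2 at ranks 94 and 1024. A further stretch in LIPA was at ranks 288 and 4835, and MYOF, a membrane repair protein, was at ranks 168 and 4734 with 14 intervals and 2. In MP2_NTC they include a stretch 7.77 kb from OSBP (rank 67 against 521 in MP2_HDAC1_OE), IGF2BP3, an RNA-binding protein of tumours and embryos (76 and 998), and INF2, an actin-nucleating formin (95 and 2443, with 12 intervals and 3).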
